A study of Mus musculus with 8 samples.

Results

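The genes of this report encode the channels and membrane proteins that join and hydrate the fiber cells (FC) of the mouse lens: the connexin genes Gja3 and Gje1, the aquaporin genes Mip, Aqp1 and Aqp5, the junctional membrane protein gene Lim2, and Lgsn, which encodes lengsin. They were taken by symbol, 7 symbols in all, and matched 9 of the 35275 rows of the deposited table, because Lim2 is listed in 3 rows. One row of each symbol, 7 rows, was among the 9794 that were tested, namely all rows whose mean FPKM reached 1.0 in at least 1 group. FPKM, a normalised count of sequenced fragments, are scaled for gene length and library size, so levels can be compared between genes as well as between libraries.

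Lens FC of C57BL/6 mice (C57BL/6J in the study's methods) were sequenced as 8 libraries, 4 of a group exposed to cigarette smoke (CS) and 4 of age-matched, untreated controls (Ct). Each library was a separate pool of right-eye FC of 4 mice, so the spread within a group is that between pools. Exposure in a whole-body smoke chamber began shortly before birth and lasted 3.5 months, with 5 hours on each of 5 days of the week, while the untreated Ct mice stayed in the animal facility. The comparison of the groups asks which transcripts of lens FC differ after CS exposure.

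A lens has no blood vessels, and its FC lose their nuclei and organelles as they mature. Gap junctions built of connexins carry ions and small metabolites from cell to cell, aquaporins let water through the membrane, and Mip, the aquaporin of the fiber membrane, also takes part in the contact between neighbouring fibers. Loss or mutation of Mip, Gja3 or Lim2 causes cataract. Aqp1 is known from the lens epithelium, from vascular endothelium and from red cells, and Aqp5 from the lens and the corneal epithelium. Lengsin belongs to the glutamine synthetase family and is found in FC with the fiber cytoskeleton, so that it is a partner of the membrane proteins rather than a channel.

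The family signatures can be read in the coding sequences of the GENCODE M21 transcripts (1 for each gene, GRCm38). An aquaporin carries a pair of Asn-Pro-Ala boxes that line its water pore, and the stretches below are shown because the box codons, in capitals, were found at both places in Mip, Aqp1 and Aqp5, the 3 aquaporins listed here.
Mip, first box: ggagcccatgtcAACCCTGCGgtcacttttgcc
Aqp1, first box: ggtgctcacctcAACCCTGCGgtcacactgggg
Aqp5, first box: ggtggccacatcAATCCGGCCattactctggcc
Mip, other box: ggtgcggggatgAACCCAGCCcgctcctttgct
Aqp1, other box: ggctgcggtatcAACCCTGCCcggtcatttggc
Aqp5, other box: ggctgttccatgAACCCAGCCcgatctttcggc
In Mip these stretches cover bases 190 to 222 and 538 to 570 of the coding sequence of 792 bases, counted from the A of the start codon.

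Connexins dock through extracellular loops held by cysteines, and the loops are shown because Gje1 and Gja3 differ there. Cysteine codons are in capitals.
Gja3, first loop: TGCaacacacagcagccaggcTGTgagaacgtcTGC
Gje1, first loop: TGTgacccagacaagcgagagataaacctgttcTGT
Gja3, other loop: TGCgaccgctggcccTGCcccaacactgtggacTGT
Gje1, other loop: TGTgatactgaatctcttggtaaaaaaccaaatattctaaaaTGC
Gja3 has 3 cysteine codons in each loop, and Gje1 has 2 in each. The coding sequence of Gje1 is 618 bases long with its stop codon, and that of Gja3 is 1254 bases long.

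FPKM of a gene rise in steps of 1 read, from which read numbers were recovered for 9789 of the 9794 tested rows, all 7 genes included. The libraries held an estimated 18.1 to 23.3 M fragments, a relative depth of 0.910 to 1.17. Of the marker genes of lens FC, 12 of 12 were tested, and their summed level was 337747 to 349229 FPKM in untreated Ct mice and 328457 to 341542 FPKM in CS-exposed mice. Untreated Ct replicate 3 stood apart by most of its markers of the lens epithelium. Foxe3, a transcription factor gene of that layer, was at 64.0 FPKM there, against 17.5 to 34.8 FPKM in the other libraries. Pax6, Cdh1, Pdgfra, Gja1, Npnt and Ccnd2 were also highest in this library. Wls, the remaining marker listed, was not, at 50.4 FPKM against 49.6 to 60.1 FPKM in the other libraries. The summed level of the 8 epithelium markers was 111 to 172 FPKM in untreated Ct mice and 103 to 135 FPKM in CS-exposed mice, and 1 of the 8 had a limma p under 0.05, lower in CS-exposed mice. Rod photoreceptor markers were higher in CS-exposed mice, with a limma p under 0.05 for 8 of the 9 tested (10 listed) but no adjusted p under 0.05. Their sum was 33.2 to 93.8 FPKM, against 11.0 to 29.3 FPKM in untreated Ct mice. Of the other marker lists, Rpe65 of pigmented cells, Hba-a1 of red cells and Hsf4 of lens FC also had a limma p under 0.05. They were higher in CS-exposed mice (log2 fold change 2.34, 2.42 and 0.09), and none passed after adjustment. The groups did not overlap for Rpe65 and Hsf4, as for 3.08% of all rows tested. Rpe65 and Hba-a1 reached the minimum only through CS-exposed mice (means 1.32 and 3.05 FPKM, against 0.112 and 0.342 FPKM in untreated Ct mice). Hba-a1 was at 0.407, 0.310, 2.02 and 9.46 FPKM in CS-exposed replicates 1 to 4, and at most at 1.01 FPKM in untreated Ct mice. The other 6 of the 7 pigmented cell markers were not tested. The part of these cells in the values of the 7 genes was not tested.

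The 7 genes covered levels from 2.78 to 4705 FPKM and together made up 0.859% to 1.001% of the summed FPKM of a library. Their order was Lgsn, Mip, Gja3, Aqp5, Gje1, Lim2 and Aqp1. For 4 of the 6 pairs of neighbours in this order the values of the 8 libraries did not overlap. Gje1 and Lim2 overlapped over all libraries but Gje1 was the higher of the pair in 8 of 8 libraries, by 1.14 to 1.65 times. Lim2 was above Aqp1 in 7 of 8 libraries.

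**Figure D1:**
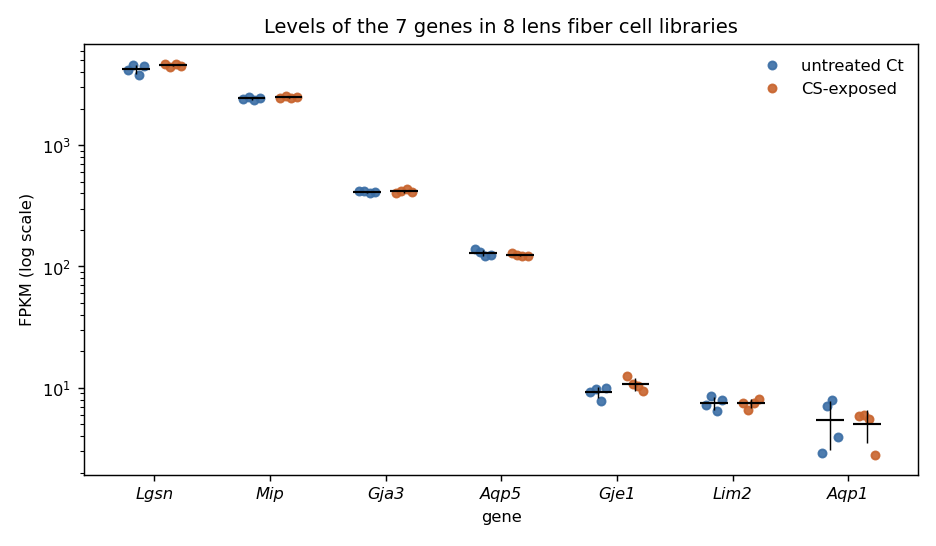
FPKM of the 7 genes on a log axis, with 1 point for each library, a horizontal bar for the mean of the 4 libraries of a group and a vertical bar for 1 SD. Lgsn and Mip lie at or above 2364 FPKM in every library, and Gje1, Lim2 and Aqp1 at or below 12.4 FPKM.

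Mip was by far the most abundant aquaporin transcript of lens FC. Its level was 2416, 2483, 2364 and 2459 FPKM in untreated Ct replicates 1 to 4 and 2450, 2532, 2470 and 2519 FPKM in CS-exposed replicates 1 to 4. The groups overlapped, with 2 of the CS-exposed libraries above every untreated Ct library. The means were 2431 ± 52.2 and 2493 ± 39.2 FPKM (SD, n = 4 per group), and the log2 fold change was 0.04 (SE, the standard error, 0.03, limma p = 0.235, adjusted p = 0.956, two-sided exact permutation p = 0.143). The 95% interval of the fold ran from 0.981 to 1.07, and without untreated Ct replicate 3 the log2 fold change was 0.02. Behind each value stood 95409 to 125369 reads, and Mip ranked 20 or 21 among all rows in every library. A coefficient of variation (CV) of 1.88% within groups compares with 0.301% from counting alone.

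Mip lies at chr10:128225838-128231812 of GRCm38 on the plus strand, in 4 exons. Its last exon shares 1223 of the gene's 2144 exon bases (57.0%) with Gm26847, a long non-coding RNA gene on the opposite strand. Gm26847 was listed at 79.4 ± 2.46 FPKM in untreated Ct mice and 78.2 ± 3.79 FPKM in CS-exposed mice (SD, n = 4 per group). The strand setting of the counting is not given in the sources used here, so reads of Mip and Gm26847 in the shared bases cannot be told apart.

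Aqp5, a water channel of the lens and of secretory epithelia, was at 139.9, 131, 121 and 125 FPKM in the untreated Ct libraries and at 129, 123, 122 and 122 FPKM in the CS-exposed libraries. All CS-exposed values lay within the range of the untreated Ct values. The log2 fold change was -0.06 (SE 0.05, limma p = 0.270, adjusted p = 0.965, exact permutation p = 0.257), and the interval of the fold was 0.890 to 1.04. Without untreated Ct replicate 1, the library with the most Aqp5, the log2 fold change was -0.02, and without untreated Ct replicate 3 it was -0.09. Aqp5 (chr15:99590782-99594829, plus strand) was counted with 3508 to 4423 reads.

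Aqp1 was the lowest and the most variable of the 7 genes. Its level was 2.91, 7.06, 7.87 and 3.96 FPKM in the untreated Ct libraries and 5.90, 5.93, 5.55 and 2.78 FPKM in the CS-exposed libraries. The groups overlapped, and each held low and high libraries. The log2 fold change was -0.06 (SE 0.32, limma p = 0.851, adjusted p = 0.995, exact permutation p = 0.971), with an interval of the fold from 0.594 to 1.55. Without CS-exposed replicate 4 the log2 fold change was 0.20, without untreated Ct replicate 3 it was 0.15, and without untreated Ct replicate 2 it was 0.10. Aqp1 (chr6:55336432-55348555, plus strand, 4 exons) was counted with 152 to 481 reads, for which counting alone gives a CV of 5.86%, and its CV within groups was 37.6%. By its within-group SD on the log2 scale Aqp1 ranked 328 among the 9794 tested rows, whereas Mip ranked 9783 and Gja3 9727.

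Among the aquaporin genes, Mip made up 94.3% to 95.2% of the summed FPKM in every library, Aqp5 4.62% to 5.46% and Aqp1 0.105% to 0.315%. The ratio of Mip to Aqp5 was 18.8 ± 1.10 in untreated Ct mice and 20.1 ± 0.726 in CS-exposed mice (SD, n = 4 each), with overlapping libraries. Of 12 aquaporin genes listed, 12 were in the table and 5 were tested. None of these 5 had a limma p under 0.05, in either direction, and 0 had an adjusted p under 0.05. Aqp11, an aquaporin of intracellular membranes, was at 0.711 to 2.87 FPKM on 17 to 75 reads, and Aqp4, best known from glia, at 0.600 to 2.35 FPKM. The other 7 reached at most 1.45 FPKM in any library, and 1 of them was at 0 in all.

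Gja3, the main connexin gene of lens FC in these libraries, was at 421, 417, 400.02 and 412 FPKM in the untreated Ct libraries and at 403, 421, 431 and 413 FPKM in the CS-exposed libraries. The groups overlapped, with CS-exposed replicate 1 among the lowest libraries and replicate 3 the highest. The means were 413 ± 9.23 and 417 ± 12.3 FPKM (SD, n = 4 per group), and the log2 fold change was 0.02 (SE 0.04, limma p = 0.677, adjusted p = 0.989, exact permutation p = 0.571). The 95% interval of the fold was 0.957 to 1.07. Gja3 (chr14:57034460-57058100, minus strand) was counted with 11541 to 15064 reads and ranked 118 to 125 among all rows.

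Gje1, the connexin with the shorter set of cysteines, was at 9.24, 9.79, 7.82 and 9.97 FPKM in the untreated Ct libraries. In the CS-exposed libraries it was at 12.4, 10.7, 10.3 and 9.40 FPKM, so that 3 of 4 lay above every untreated Ct library and the fourth did not. The log2 fold change of 0.21 (SE 0.10) was the highest of the 7 genes, but did not pass the test (limma p = 0.0626, adjusted p = 0.956, exact permutation p = 0.114). The interval of the fold was 0.991 to 1.36. Without untreated Ct replicate 3, in which Gje1 was lowest, or without CS-exposed replicate 1, in which it was highest, the log2 fold change was 0.14. Gje1 lies at chr10:14715623-14718214 on the minus strand, within Nmbr on the other strand but with 0 exon bases shared, and was counted with 267 to 387 reads.

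Gja3 made up 80.1% to 83.7% of the summed connexin FPKM, Gje1 1.57% to 2.52% and Gja1, the connexin gene of the lens epithelium, 0.373% to 1.85%. Of the 20 connexin genes listed, all in the table, 4 were tested. None had a limma p under 0.05, with log2 fold changes from -0.46 for Gja1 to 0.21 for Gje1. Of the other 16, 6 were at 0 in all libraries and the rest reached at most 0.549 FPKM. Of the 3 pannexin genes, which encode channels of a related shape, only Panx2 was tested, at a log2 fold change of -0.22 and a limma adjusted p of 0.961.

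The length on which FPKM rest was recovered from the reads and differed from the annotation for some genes. It was 1548 bases for Gja3, whose exons cover 2963 bases in GENCODE M21, and 1551 bases for Aqp5, against 2599. For Mip, Aqp1, Lgsn and Gje1 the 2 lengths were equal, and for Lim2 they were 2180 and 2185 bases. Levels of Gja3 and Aqp5 relative to the other genes thus hold for the shorter gene models, while differences between groups do not depend on the length.

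Lim2 encodes a junctional membrane protein that is abundant in fiber membranes. Its main row was at 7.17, 8.62, 6.47 and 7.88 FPKM in the untreated Ct libraries and at 7.50, 6.57, 7.53 and 8.12 FPKM in the CS-exposed libraries. The groups overlapped throughout, and the log2 fold change was -0.02 (SE 0.10, limma p = 0.880, adjusted p = 0.995, exact permutation p = 0.914) and an interval of the fold from 0.845 to 1.16. Without untreated Ct replicate 2, untreated Ct replicate 4 or CS-exposed replicate 2 the log2 fold change was above 0, at most 0.05. Lim2 ranked 3127 to 3912 among all rows, on 311 to 383 reads. Of the 2 other rows with this symbol, 1 was at 0 in all libraries, and 1 was at 0.214 FPKM in CS-exposed replicate 1 and at 0 in the others. In GENCODE M21, Lim2 is a single gene at chr7:43427670-43435996 on the plus strand. The table gives no identifiers, so the places of the 3 rows are not known. Counting tools can leave out reads that fall on more than 1 gene model, so the level of Lim2 is uncertain.

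Of the family of Lim2, 7 of 8 genes listed were in the table and 6 were tested, with 3 higher, 3 lower and none with a limma p under 0.05. Pmp22, known from myelin, was at 79.9 ± 6.18 FPKM in untreated Ct mice and 77.7 ± 9.51 FPKM in CS-exposed mice (SD, n = 4 per group), and Emp2, an epithelial membrane protein gene, at 38.8 ± 2.45 and 39.8 ± 2.98 FPKM. In every library Pmp22 was at least 8.54 times and Emp2 at least 4.44 times the level of the main row of Lim2.

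Lgsn was the highest of the 7 genes and ranked 15 to 17 among all rows. Its level was 4175, 4547, 3766 and 4469 FPKM in the untreated Ct libraries and 4705, 4430, 4668 and 4527 FPKM in the CS-exposed libraries. CS-exposed replicates 1 and 3 were above every untreated Ct library, and the groups overlapped. The means were 4239 ± 354 and 4582 ± 127 FPKM (SD, n = 4 per group), which gave a log2 fold change of 0.12 (SE 0.05, 95% interval 5.5e-05 to 0.23). The limma p was 0.0499 and the adjusted p 0.956, and the exact permutation p was 0.143. Without untreated Ct replicate 3 the log2 fold change was 0.06, and the unadjusted p by limma was above 0.05, as it was without any 1 of untreated Ct replicate 1 and CS-exposed replicates 1, 3 and 4. Lgsn lies at chr1:31176401-31204725 on the plus strand and was counted with 156617 to 198155 reads. It shares 280 of its 1937 exon bases with a gene on the opposite strand, 4931428L18Rik, which was at 8.13 and 8.04 FPKM in the group means.

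Glul, which encodes glutamine synthetase and is the only other member of that family listed, was at 5.74 ± 0.868 FPKM in untreated Ct mice and 6.54 ± 0.863 FPKM in CS-exposed mice (SD, n = 4 per group; log2 fold change 0.19, limma adjusted p = 0.956). Lgsn was 608 to 982 times the level of Glul in the 8 libraries. The ratio of Lgsn to Mip was 1.74 ± 0.110 in untreated Ct mice and 1.84 ± 0.0795 in CS-exposed mice (SD, n = 4 each).

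Of the 7 genes, 1 (Lgsn) had a limma p under 0.05, and it was higher in CS-exposed mice. Among all 9794 rows tested, 4.83% had such a p, 2.75% higher and 2.08% lower. None of the 7 had an adjusted p under 0.05, which held for 1 row of all tested (0.0102%), Gm26917, a non-coding RNA gene that was not among the genes described here. None of the 7 had groups that did not overlap, against 3.08% of all rows. With 4 higher and 3 lower, the median log2 fold change of the 7 was 0.02, and that of all rows was 0.0043. A two-sided exact permutation test of 4 against 4 libraries cannot go below p = 0.0286.

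**Figure D2:**
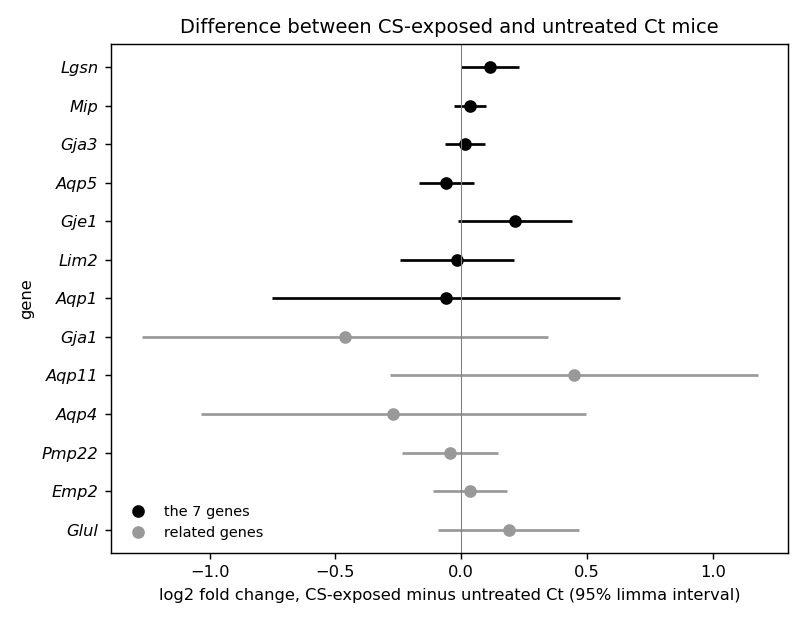
Log2 fold change (CS-exposed minus untreated Ct, x axis) of the 7 genes and of 6 related genes, with points for the limma estimate and bars for its 95% interval. The bars of Mip and Gja3 are the shortest of the 7 genes, and that of Aqp1 runs from -0.75 to 0.63.

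Untreated Ct replicate 3 was the lowest of the 8 libraries for 6 of the 7 genes and the highest for Aqp1. In this library Lgsn was at 3766 FPKM against 4175 to 4705 FPKM in the other 7, Gje1 at 7.82 against 9.24 to 12.4 FPKM, and Lim2 at 6.47 against 6.57 to 8.62 FPKM. For Mip, Gja3 and Aqp5 the gap to the next library was smaller, with 2364 against 2416 FPKM, 400.02 against 403 FPKM and 121 against 122 FPKM. The score of epithelium markers, a mean log2(FPKM + 0.1) over 7 genes, was 3.70 in untreated Ct replicate 3, against 2.70 to 3.21 in the others. Crystallins made up 65.9% of its summed FPKM, against 63.9% to 65.7%. Over the 8 libraries the Pearson r of the 6 genes with this score ran from -0.695 (Lgsn), -0.629 (Lim2), -0.572 (Mip) and -0.528 (Gje1) to -0.206 (Aqp5) and -0.134 (Gja3), with exact permutation p from 0.0730 to 0.759. Spearman rho ran from -0.571 (Lim2) to 0.167 (Gja3), with exact permutation p from 0.151 to 0.793, and the smallest adjusted p over the 9 genes correlated with the score was 0.161 for r and 0.340 for rho. Without untreated Ct replicate 3 and CS-exposed replicate 4, r ran from -0.218 (Gje1) to 0.749 (Gja3), so the negative values rest on these libraries for Mip, Gja3 and Lgsn, where r was then above 0. In pooled tissue, fewer cells of a type and less RNA per cell cannot be told apart.

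**Figure D3:**
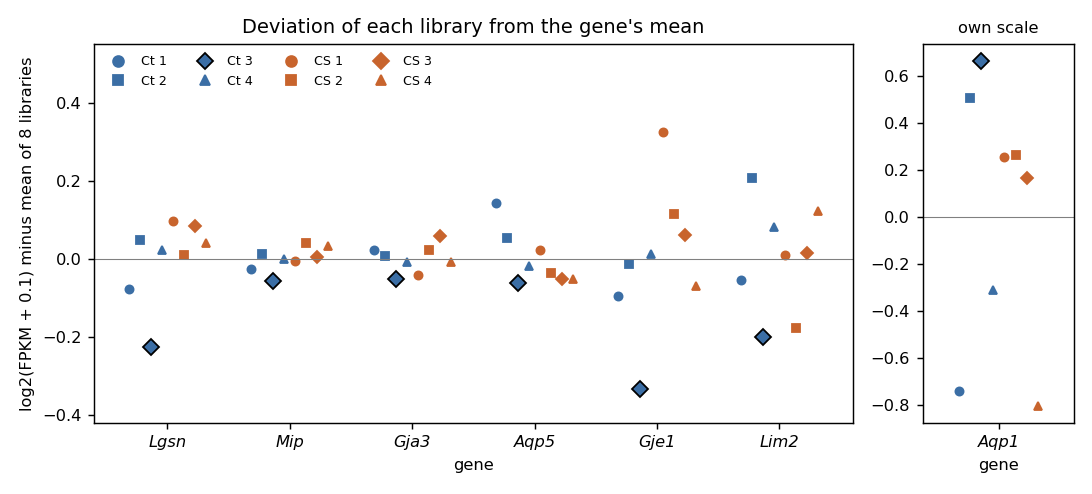
Deviation of log2(FPKM + 0.1) of each library from the mean of the 8 libraries, by gene, with the group as colour and the replicate as marker shape. Untreated Ct replicate 3 (black outline) is the lowest point of 6 genes and the highest of Aqp1, which has an axis of its own.

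Libraries with more epithelium marker RNA held more Aqp1, a relation that did not hold after adjustment for the genes compared. Its 3 lowest libraries, CS-exposed replicate 4 and untreated Ct replicates 1 and 4, had epithelium scores of 2.70, 3.03 and 2.84, and its highest, untreated Ct replicate 3, had 3.70. Over the 8 libraries Aqp1 and the score gave Pearson r = 0.744 (exact permutation p = 0.0285) and Spearman rho = 0.738 (exact permutation p = 0.0458). Adjusted (Benjamini-Hochberg) over the 9 genes correlated with this score, the permutation p values were 0.146 and 0.206. Of the deviations from the group means, r was 0.766, and without untreated Ct replicate 3 and CS-exposed replicate 4 r was 0.463, so the relation rests in good part on these libraries. Gja1, left out of the score, had r = 0.748 (exact permutation p = 0.0352) and rho = 0.643 (exact permutation p = 0.0962), and r = 0.689 without the same libraries. Gja1 ranged from 1.83 to 9.25 FPKM. The relation of Aqp1 to the marker lists of other cells was not tested. The 6 markers of endothelium reached at most 0.418 FPKM in any library. Red cell markers had their highest sum, 22.8 FPKM, in CS-exposed replicate 4. Corneal epithelium markers summed to 44.5 to 94.2 FPKM in untreated Ct mice and 40.7 to 68.8 FPKM in CS-exposed mice. Those of ciliary body and iris summed to 268 to 316 FPKM and 290 to 315 FPKM. Which cells the Aqp1 RNA came from was not tested.

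**Figure D4:**
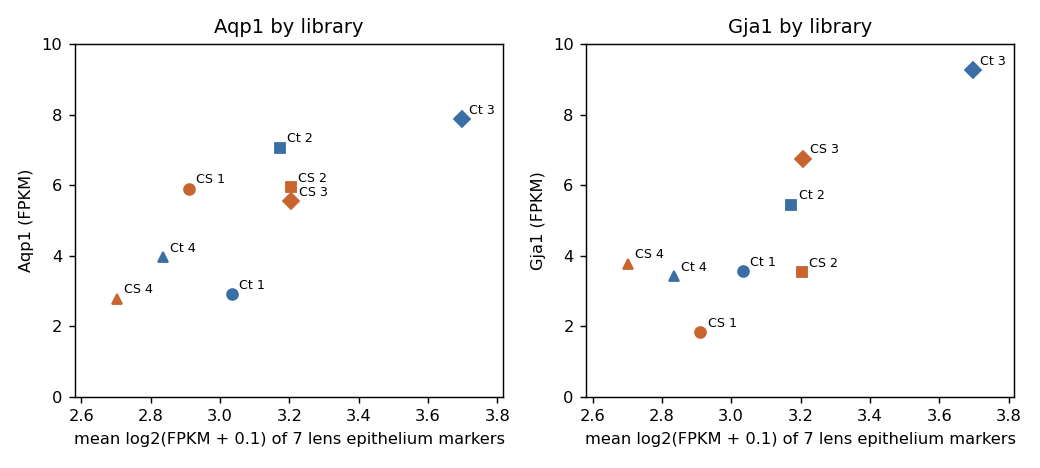
FPKM of Aqp1 (left) and Gja1 (right) against the mean log2(FPKM + 0.1) of 7 lens epithelium markers, with 1 labelled point for each library. Untreated Ct replicate 3 lies at the upper right in both, with 7.87 FPKM of Aqp1 and 9.25 FPKM of Gja1.

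Of 22 genes listed as binding partners or modifiers of lens membrane channels, all were in the table and 18 were tested, with 11 higher and 7 lower in CS-exposed mice and a median log2 fold change of 0.02. None had a limma p under 0.05, the smallest being 0.0813 for Prkca, a protein kinase that can phosphorylate connexins. Calm2 and Calm3, calmodulin genes whose product binds Mip and connexins, had log2 fold changes of 0.08 and -0.0028. Ezr, which links membrane proteins to actin, had one of 0.01, and Tjp1, a scaffold of junctions, of 0.04. Bfsp1 and Bfsp2, the beaded filament genes of FC whose products attach to Mip, were at 7630 ± 483 and 2589 ± 106 FPKM in untreated Ct mice and at 7980 ± 137 and 2651 ± 55.4 FPKM in CS-exposed mice (SD, n = 4 per group). The 4 partners that were not tested reached at most 0.138 FPKM.

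The transcripts most like each gene over the 8 libraries were found by Pearson r on the log2 scale among all tested rows, which share libraries, depth and scaling. For Lgsn these were Cct5, Mboat1 and Rpl18 (r = 0.980, 0.980 and 0.973), for Mip Tmem178, Ufm1 and Tbc1d12 (r = 0.961, 0.956 and 0.922) and for Gja3 Gltscr2, Eef1e1 and Ctage5 (r = 0.957, 0.952 and 0.938). Aqp5 was most like 1500009C09Rik (r = 0.938), Lim2 most like Fam114a1 (r = 0.962), Gje1 most like Ttc12 (r = 0.967) and Aqp1 most like Shank1 (r = 0.959). Over all tested rows the median of the highest r of a gene was 0.964, so that of the 7 genes Lgsn and Gje1 alone exceeded the usual best match. Between the 7 genes themselves, r was highest for Lgsn and Gje1 (0.841) and for Mip and Lgsn (0.733), and these genes share the low value in untreated Ct replicate 3.

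The 250 bases before the RefSeq start of Lgsn and of Mip are shown because these are the most abundant of the 7 transcripts (RefSeq, GRCm38.p6, plus strand, at chr1:31176185-31176434 and chr10:128225560-128225809). Capitals mark the letters TATAAA, those of the TATA box, and TGCTGA, those of the core of the element recognised by MAF factors, known regulators of FC genes.
Lgsn: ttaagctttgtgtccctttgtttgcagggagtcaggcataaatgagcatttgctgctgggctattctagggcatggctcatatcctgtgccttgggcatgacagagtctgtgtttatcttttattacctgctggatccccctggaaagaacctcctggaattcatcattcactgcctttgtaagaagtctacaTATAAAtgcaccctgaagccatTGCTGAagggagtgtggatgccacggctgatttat
Mip: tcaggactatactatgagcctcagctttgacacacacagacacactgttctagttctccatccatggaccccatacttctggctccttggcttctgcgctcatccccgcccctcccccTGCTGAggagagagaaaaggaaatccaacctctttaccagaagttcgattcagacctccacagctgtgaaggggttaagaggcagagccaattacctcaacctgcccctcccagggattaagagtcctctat
Both strands were searched, and in these sequences the motifs did not overlap each other. Of 7 promoters found for 6 of the genes, 3 held TGCTGA (Lgsn, Mip and Lim2) and 2 held TATAAA (Lgsn and Gja3). In Lgsn these letters begin 57 bases before the start, and in Gja3 they lie on the strand opposite to the gene. Whether any of these letters act as an element was not tested. Among all 32851 promoters, 16.1% held TGCTGA and 12.4% held TATAAA in a window of this length.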

How the data were processed

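Paired reads were aligned by the authors to GRCm38 using STAR 2.5, and reads per gene came from HTSeq 0.6.1 (submitters' processing notes). The deposited table holds FPKM by library, with group means. The annotation release is not given in the sources used here. The authors' log2 fold change, p-value and adjusted p-value of DESeq2 were also deposited and were not used.

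Groups and replicate numbers were taken from the sample labels. The pools were of 1 sex each, which the labels do not give by library, and sex was not used. Rows whose mean FPKM reached 1.0 in at least 1 group were tested by limma 3.58.1 (R 4.3.3, lmFit then eBayes, on log2(FPKM + 0.1), variance trend, two-sided, Benjamini-Hochberg over all rows tested). On this scale the change of low genes is understated. Beside it stands an exact permutation test over all 70 assignments of 4 against 4 libraries. The deposited values are FPKM, so tests on counts (DESeq2, edgeR) were not run. The fit was tested on simulated data.

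Whole reads were sought from the steps of FPKM with a tolerance of 0.02 reads. The fragments per library are an estimate from gene lengths of GENCODE M21, with 651 of 9071 genes at 1 common value. Intervals from counting cover counting error only. Coordinates and coding sequences are from GENCODE M21 (GRCm38) and promoters from RefSeq (GRCm38.p6). Python 3.11.15, numpy 2.4.6, pandas 2.3.3, Biopython 1.88 and matplotlib 3.10.9 were used.

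The 7 genes, the related lists and the markers were chosen with earlier results of these data known. Named are the 7 genes, related genes that were tested, marker genes, and the 3 most alike genes. Gm26847, 4931428L18Rik, Nmbr and Gm26917 were added after their values were seen. Alternatives were other pseudocounts, filters and scalings, eBayes without or with a robust trend, the replicate number as a block, leaving out each library and, chosen after seeing the data, limma-voom on the recovered reads.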

Additional observations from a re-analysis of the deposited data

Results flagged for a closer look

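In 72 groups of 4 libraries (36 tested genes of the lists, in both groups), Dixon's criterion at 95% singled out 1 library in each of 2 groups, where chance gives 3.6. Aqp1 was at 2.78 FPKM in CS-exposed replicate 4, against 5.55 to 5.93 FPKM in the other 3. That library also had the lowest epithelium score (2.70) and the highest sum of red cell markers (22.8 FPKM), whose part was not tested. Lgals3, a galectin known to bind the protein encoded by Lim2, was at 54.8 FPKM in CS-exposed replicate 1, against 52.7 to 52.9 FPKM in the other 3.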

How the results depend on the processing

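Of 133 values of the 7 genes under the alternatives, 124 kept their direction and none had an adjusted p under 0.05, the smallest being 0.906. The log2 fold change of Gja3 was -0.014 with quantile normalization and -0.0068 when rescaled outside the crystallins, and ranged from -0.0011 to 0.032 when 1 library was left out (below 0 without CS-exposed replicate 3). That of Aqp1 ranged from -0.32 to 0.20 when 1 library was left out, and that of Lim2 from -0.086 to 0.050. Lgsn ranged from 0.060 to 0.15 and Gje1 from 0.14 to 0.27 there. Lgsn had an unadjusted limma p under 0.05 in 6 of 19 alternatives and Gje1 in 2, those without untreated Ct replicate 4 and without CS-exposed replicate 4. With limma-voom on the recovered reads the p of Lgsn was 0.00841 (adjusted p = 0.954). Quantile normalization brought Lgsn to a log2 fold change of 0.022 and Mip to 0.014. Rescaling outside the crystallins also brought Mip to 0.014. The cause of these changes was not tested.

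Over all rows, 473 had a limma p under 0.05. Without a minimum FPKM these were 862 of 21019 rows and with a minimum of 5 FPKM 226 of 4822, since other rows were tested. After adjustment 1 row passed, and 0 did without a minimum FPKM, with eBayes without a trend (498 rows at an unadjusted p under 0.05) and without untreated Ct replicate 4 (479 rows), all by limma, so that the count was 0 to 1 when 1 library was left out, while limma-voom gave 2. Deviations of same-numbered libraries correlated by 0.012 to 0.16 (mean 0.090) and those of differently numbered libraries by -0.126 to 0.055 (mean -0.030). The numbers were not taken to pair the libraries, since not every same-numbered correlation was above 0.1 and not every library correlated best with its own number. With the replicate block 5 rows passed, none of the 7 genes among them.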

Other observations

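Aqp3, an aquaporin of surface epithelia that was below the minimum and is named here after its values were seen, was at 0.285, 0.947, 0.292 and 0.752 FPKM in the untreated Ct libraries and at 0.0269, 1.45, 0.110 and 0 FPKM in the CS-exposed libraries. Its highest and its lowest values were both in CS-exposed libraries, and the groups overlapped.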
